A study of Mus musculus with 6 samples.

Results

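The kynurenine pathway enzymes are 8 genes, Ido1, Tdo2, Afmid, Kmo, Kynu, Haao, Qprt and Acmsd, that carry tryptophan to quinolinate and on towards NAD. They were chosen by role, and the one measured value that selected them is the difference of Haao between the groups. All 8 were found among the 22180 genes with a value, and each has a single probe set annotated to it alone, so picking the brightest probe set by the mean of all arrays left no choice to make among them. Haao gave the set its name because it had passed limma at an adjusted p under 0.05 in earlier work on the same arrays. The values of Haao in the comparison of knockout with WT are therefore given here as a description and are not independent evidence. The other 7 were taken for their place in the pathway, with earlier results of these arrays known.

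Expression was measured on 6 Affymetrix Mouse Gene 2.0 ST arrays of LSK cells, the Lin- Sca-1+ c-Kit high cells of the bone marrow that hold the blood stem cells and the earliest progenitors. The knockout group, labelled Ctcf conditional KO, had 3 arrays from mice whose Ctcf gene can be deleted by giving tamoxifen, and the WT group had 3. All mice were male and 8 weeks old, and all were given tamoxifen, 2 mg daily on 3 days, with the sort 24 hours after the third dose. The labels call the control genotype WT, while the design text speaks of CreER mice, so it is unclear whether the controls carry the recombinase, and the promoter that drives it is not named. CTCF is a zinc finger protein that binds insulators and the anchors of chromatin loops, and the study set out to ask what its loss does to the upkeep of stem cells.

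The pathway is the main route by which mammals break down tryptophan. A haem dioxygenase, IDO1 or TDO2, opens the indole ring, a formamidase (AFMID) releases kynurenine, and KMO and KYNU turn it into 3-hydroxyanthranilate. HAAO, an iron-dependent dioxygenase, opens that ring, and its product closes by itself to quinolinate unless ACMSD diverts it, while QPRT passes quinolinate on to the synthesis of NAD. Liver runs the whole route, whereas in blood and immune cells IDO1 is known as an enzyme induced by interferon gamma and KMO as an enzyme of macrophages.

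Levels below are RMA log2 values of a probe set, in which 1 unit is a doubling. Differences are knockout minus WT, and an adjusted p comes from limma with Benjamini-Hochberg adjustment over all 22180 genes. The 6 array medians lay between 5.99 and 6.07. Correlations were computed across genes, and genes are no independent replicates. They were 0.979 to 0.989 between knockout and WT arrays and 0.986 to 0.989 within groups. Ctcf itself stood at 7.58, 7.78 and 7.86 in the knockout and at 8.35, 8.59 and 8.73 in WT, a difference of -0.82 (SE 0.13, limma adjusted p = 0.104) or 56.7% of the WT level. Its groups stood apart, and an exact two-sided permutation test gave p = 0.1, the lowest value that 3 against 3 arrays allow. The deleted exons are not stated, so the probe set may lie outside them. Nothing in the labels ties arrays to single animals beyond the words biological replicate.

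Haao, the enzyme that makes the precursor of quinolinate, was the single enzyme of the 8 past the threshold, and it was lower in the knockout. It stood at 6.47, 6.61 and 6.27 on knockout arrays 1, 2 and 3, against 8.03, 7.71 and 7.95 on WT arrays 1, 2 and 3. Every knockout array lay below every WT array, and the gap between the highest knockout array and the lowest WT array was 1.10. The group means were 6.45 ± 0.17 in the knockout and 7.90 ± 0.17 in WT (SD, n = 3 each). Haao fell by 1.45 on the log2 scale (SE 0.13, 95% interval -1.75 to -1.14), which leaves 36.7% of the WT level, with a limma adjusted p of 0.0117. Ordered from the most negative difference, it was number 17 of the 22180 genes. With 1 array left out at a time the difference stayed between -1.54 and -1.36, but the call did not always hold. It passed without knockout replicate 2 (adjusted p = 0.0389) and without WT replicate 2 (adjusted p = 0.0381). It did not pass without knockout replicate 1 (adjusted p = 0.0675), knockout replicate 3 (adjusted p = 0.0647), WT replicate 1 (adjusted p = 0.0894) or WT replicate 3 (adjusted p = 0.0545). When limma was run over all 41345 probe sets, a setting chosen after seeing the data, the adjusted p of Haao was 0.0922. In sorted cells measured in bulk, fewer cells that express a gene and less RNA per cell cannot be told apart.

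**Figure D1:**
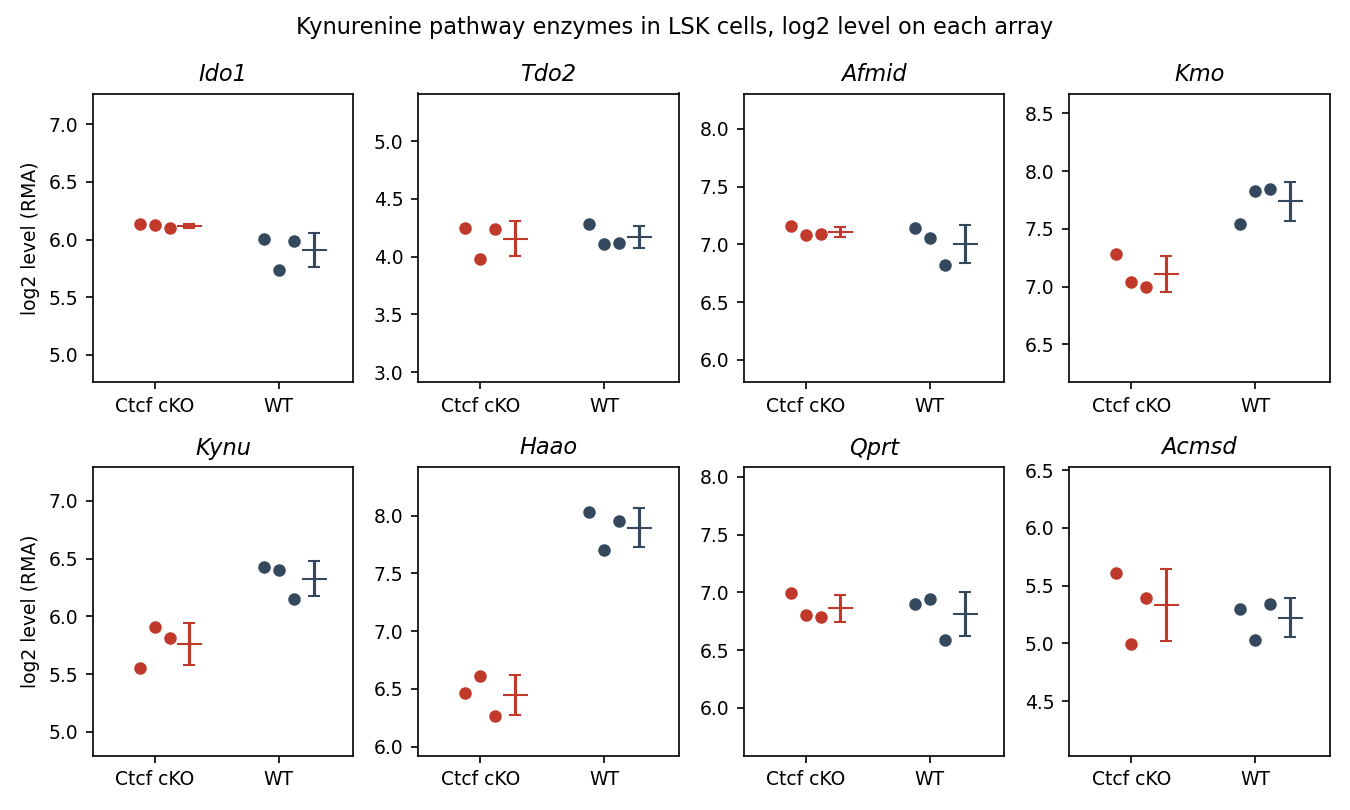
Log2 level of each enzyme on each array, in pathway order from Ido1 to Acmsd. Points are single arrays, with the 3 Ctcf cKO arrays left of the 3 WT arrays, and bars are the group mean and SD. Each panel spans the same 2.5 log2 units. The groups stand apart for Haao, Kmo and Kynu with the knockout lower, and narrowly for Ido1 with the knockout higher.

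Both enzymes directly upstream of Haao also had knockout arrays below all WT arrays, although neither passed the test. Kmo, the flavin monooxygenase of the outer mitochondrial membrane that makes 3-hydroxykynurenine, stood at 7.29, 7.04 and 6.997 in the knockout and at 7.55, 7.83 and 7.84 in WT. The closest arrays, knockout replicate 1 and WT replicate 1, were 0.26 apart. The difference was -0.63 (SE 0.13, 95% interval -0.93 to -0.33, limma adjusted p = 0.222), or 64.6% of the WT level. Kynu, the pyridoxal phosphate enzyme kynureninase, stood at 5.56, 5.91 and 5.82 in the knockout and at 6.43, 6.40 and 6.15 in WT. Here the gap between the groups was 0.25. The knockout mean of Kynu, 5.76, is below 6.29, the median of all genes' means, and its WT mean of 6.33 is near it. The difference was -0.57 (SE 0.13, 95% interval -0.87 to -0.26, limma adjusted p = 0.295), or 67.5% of the WT level. With 1 array left out at a time Kmo stayed between -0.73 and -0.58 and Kynu between -0.65 and -0.46, and neither passed in any of these fits, with adjusted p of 0.231 to 0.554 for Kmo and 0.255 to 0.669 for Kynu.

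None of the 3 enzymes that start the pathway passed the test. Ido1 stood at 6.13, 6.13 and 6.10 in the knockout and at 6.01, 5.74 and 5.98 in WT. The knockout arrays lay above the WT arrays by a gap of 0.10, and the difference was 0.21 (SE 0.11, 95% interval -0.04 to 0.47, limma adjusted p = 0.682). Both group means of Ido1 are below 6.29, the median of all genes' means. Tdo2, the dioxygenase known from liver, was dimmer still, at 4.25, 3.98 and 4.24 in the knockout and 4.28, 4.11 and 4.12 in WT. Its groups overlapped, with a difference of -0.01 (SE 0.12, 95% interval -0.28 to 0.26, limma adjusted p = 0.9896). The arrays carry no detection call, so neither level shows whether the transcript is present. Afmid, the formamidase, stood at 7.16, 7.08 and 7.09 in the knockout and 7.14, 7.06 and 6.82 in WT, and WT replicate 3 alone lay clearly lower. The difference was 0.10 (SE 0.12, 95% interval -0.16 to 0.37, limma adjusted p = 0.886).

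Neither enzyme that acts after Haao passed the test. Qprt, which turns quinolinate into nicotinic acid mononucleotide, stood at 6.996, 6.80 and 6.79 in the knockout and 6.90, 6.94 and 6.59 in WT. The groups overlapped, and the difference was 0.05 (SE 0.13, 95% interval -0.24 to 0.35, limma adjusted p = 0.950). Acmsd, the decarboxylase that leads the product of HAAO away from quinolinate, stood at 5.61, 4.99 and 5.39 in the knockout and 5.30, 5.03 and 5.34 in WT, with the widest spread of the 8 in the knockout (SD 0.31). Its difference was 0.11 (SE 0.17, 95% interval -0.28 to 0.49, limma adjusted p = 0.918). A second probe set annotated to both Acmsd and 2900009J06Rik, which the rule leaves out, had means of 4.91 ± 0.14 in the knockout and 4.82 ± 0.11 in WT (SD, n = 3 each) and differed by 0.09 (SE 0.12). These intervals leave room for a difference of Qprt from -0.24 to 0.35 and of Acmsd from -0.28 to 0.49, a fall or a rise, so equal levels are not shown.

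**Figure D2:**
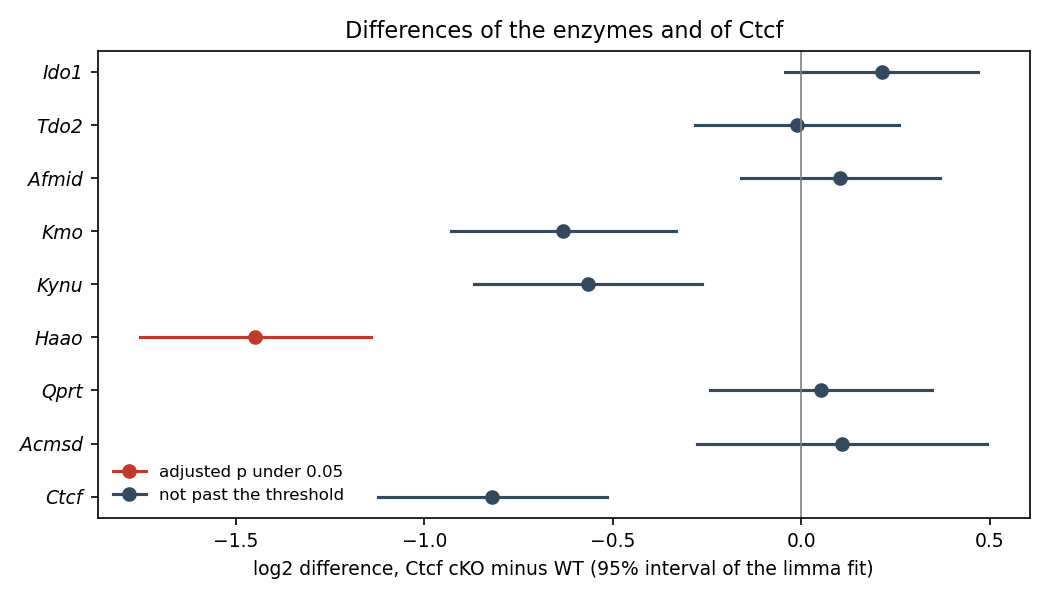
Log2 difference, Ctcf cKO minus WT, of each enzyme and of Ctcf, with the 95% interval of the limma fit (n = 3 arrays each). Haao lies at -1.45 and is the single one past an adjusted p of 0.05. Kmo and Kynu lie at -0.63 and -0.57 with intervals below 0, and the other 5 enzymes have intervals that hold 0.

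Over the set, 1 of 8 enzymes was called lower and 0 higher, where 0.0451% of all genes were called lower and 0.0271% higher. As Haao named the set for its call, nothing is read from that count. The groups did not overlap with the knockout lower for 3 of the 8, against 5.32% of all genes, and with the knockout higher for 1 of the 8, against 7.96% of all genes. Without Haao the first count was 2 of 7. An unadjusted limma p under 0.05 with a negative difference was found for 3 of the 8, against 3.08% of all genes, and these were again Haao, Kmo and Kynu. Haao enters this count too because of how it was chosen, and without Haao the count was 2 of 7. The median difference of the 8 was 0.02, and that of all genes was also 0.02, with 4 negative and 4 positive.

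Promoter sequences of GRCm38.p6 from RefSeq were matched for 6 of the 8 genes, Tdo2, Afmid, Kmo, Haao, Qprt and Acmsd. Those of Haao and Kmo are shown because their levels were apart between the groups and because the deleted factor binds DNA. Each runs 5′ to 3′ on the strand of the gene, from 250 bases before the start site to 50 after it. Capitals mark AGGNGGC, 7 letters that are a narrower form of the end of the longer CTCF motif, itself 12 letters searched as CCANNAG directly followed by NNGGC, found on either strand. The Haao window is chr17:83846741-83847040 on the minus strand and the Kmo window chr1:175631943-175632242 on the plus strand.
Haao: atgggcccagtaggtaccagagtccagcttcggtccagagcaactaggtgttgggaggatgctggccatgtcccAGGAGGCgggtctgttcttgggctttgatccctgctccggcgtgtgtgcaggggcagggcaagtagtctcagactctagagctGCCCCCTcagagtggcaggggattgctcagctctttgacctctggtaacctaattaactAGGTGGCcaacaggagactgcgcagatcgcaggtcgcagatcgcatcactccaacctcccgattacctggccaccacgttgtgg
Kmo: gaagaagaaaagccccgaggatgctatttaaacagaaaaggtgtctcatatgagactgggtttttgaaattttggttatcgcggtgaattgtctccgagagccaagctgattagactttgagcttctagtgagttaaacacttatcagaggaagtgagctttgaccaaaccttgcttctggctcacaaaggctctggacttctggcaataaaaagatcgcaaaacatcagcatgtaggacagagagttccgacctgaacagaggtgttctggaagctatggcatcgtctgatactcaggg

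The longer CTCF motif was in none of the 6 windows, and 2.43% of all 32851 promoters in the table hold it on either strand. The 7-letter core was in the windows of Haao, Afmid and Acmsd and not in those of Kmo, Tdo2 and Qprt, and 29.4% of all promoters hold it. Haao had 3 matches, which do not overlap one another and begin 176, 93 and 34 bases before the start site, the middle one on the opposite strand. At least 3 matches, the count in Haao itself, were found in 1.504% of all promoters, so nothing is read from that share. The core of the aryl hydrocarbon receptor motif, GCGTG on either strand, was in the windows of Haao, Tdo2 and Acmsd and in 32.4% of all promoters, and it does not overlap the CTCF letters in Haao. GC content was 58.7% in the Haao window and 44.3% in the Kmo window, with a median of 52.7% over all promoters. The motifs were chosen with these sequences in view. Matched letters are a description of the sequence and do not show binding, and no binding data are part of these arrays.

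None of the 10 measured genes around Haao in gene order passed the test. Its nearest measured neighbour on one side, Mta3, a subunit of the NuRD chromatin remodelling complex, averaged 9.22 in the knockout and 9.45 in WT, a difference of -0.23 (SE 0.10, limma adjusted p = 0.599), and its knockout arrays lay below its WT arrays. On the other side C430042M11Rik averaged 4.80 in the knockout and 4.83 in WT, a difference of -0.03 (SE 0.13, limma adjusted p = 0.971). Of the 5 measured genes on each side of Haao, 0 of 10 passed by limma, 4 had an unadjusted p under 0.05, and their differences ran from -0.50 to 0.36 with 5 negative. The 10 neighbours of Kmo ran from -0.16 to 0.41 and those of Kynu from -0.27 to 0.08, again with 0 called, and with 1 and 0 at an unadjusted p under 0.05. Around all 8 enzymes 0 of 80 neighbours passed by limma (smallest adjusted p = 0.284). Of all genes 0.0451% were called lower and 0.0271% higher, so nothing is read from these counts of 0. An unadjusted p under 0.05 was found for 12 of the 80, against 8.11% of all genes, and 40 of the 80 were negative. Not overlapping and lower were 8 of the 80, against 5.32% of all genes, and not overlapping and higher were 6, against 7.96% of all genes.

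**Figure D3:**
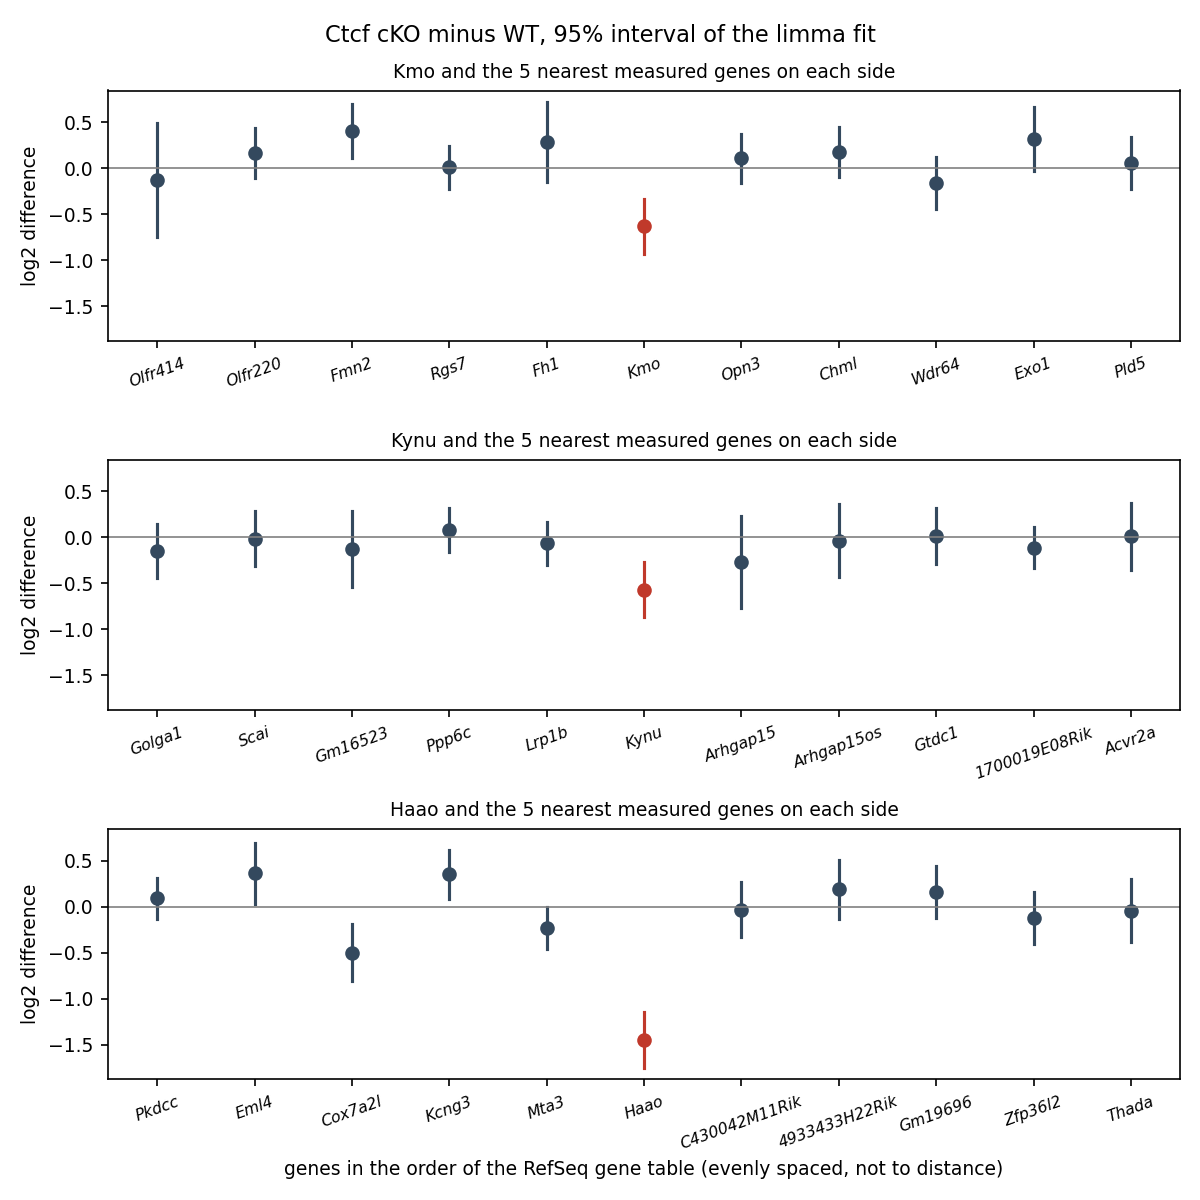
Log2 difference, Ctcf cKO minus WT, with the 95% interval of the limma fit, for Kmo, Kynu and Haao (red) and the 5 nearest measured genes on each side of each (blue), in the order of the RefSeq gene table and evenly spaced. Haao lies at -1.45, while its 10 neighbours lie between -0.50 and 0.36.

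Other genes of tryptophan and NAD metabolism did not pass the test. In 7 lists with 87 genes, 82 were measured, and limma called 0 of them (smallest adjusted p = 0.270). Of all genes 0.0451% were called lower and 0.0271% higher, so nothing is read from that 0. An unadjusted p under 0.05 was found for 6 higher and 3 lower, or 11.0% of the 82, against 8.11% of all genes. Their median difference was 0.02, with 46 positive and 36 negative. Groups did not overlap for 13 of the 82 with the knockout higher, against 7.96% of all genes, and for 8 with the knockout lower, against 5.32%.

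The 8 other enzymes of the kynurenine branches, which make kynurenic acid or carry the carbon skeleton on to acetyl-CoA, had a median of 0.02 with 6 positive. Ido2, the relative of Ido1, stood at 5.60 ± 0.25 in the knockout and 5.57 ± 0.18 in WT (SD, n = 3 each). Kyat3, a kynurenine aminotransferase, stood at 7.37, 7.69 and 7.53 in the knockout and 7.27, 7.22 and 7.31 in WT, a difference of 0.26 (SE 0.12, limma adjusted p = 0.617). Gcdh, glutaryl-CoA dehydrogenase, differed by 0.16 (SE 0.10, limma adjusted p = 0.749). The knockout arrays of both lay above their WT arrays.

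Among 15 genes of NAD synthesis and salvage the median was -0.05, with 7 positive and 8 negative. Nmrk1, the kinase that feeds nicotinamide riboside into NAD, stood at 6.66, 6.64 and 6.76 in the knockout and at 6.14, 6.32 and 5.93 in WT. Its knockout arrays lay above all WT arrays, with a difference of 0.56 (SE 0.12, 95% interval 0.27 to 0.84, limma adjusted p = 0.270). Naprt, which salvages nicotinic acid, differed by 0.28 (SE 0.13, limma adjusted p = 0.632), and Nmnat1 and Nmnat3, which make NAD from its mononucleotide, by -0.23 (SE 0.12, limma adjusted p = 0.664) and -0.08 (SE 0.10, limma adjusted p = 0.896), all with groups apart. Nampt, the rate-limiting enzyme of nicotinamide salvage, averaged 8.73 ± 0.22 in the knockout and 8.98 ± 0.40 in WT (SD, n = 3 each), and Nadsyn1, the synthetase at the end of the route from tryptophan, 6.10 ± 0.13 in the knockout and 6.16 ± 0.09 in WT. These last 2 were named after their values were seen.

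The 15 measured NAD-consuming enzymes had a median of 0.00, with 7 positive and 8 negative. Parp2, a DNA damage-activated polymerase of ADP-ribose, differed by 0.37 (SE 0.12, limma adjusted p = 0.490). The deacylase Sirt5 differed by -0.28 (SE 0.10, limma adjusted p = 0.556) and the deacetylase Sirt1 by -0.08 (SE 0.10, limma adjusted p = 0.899). Tryptophan uptake and its other fates, 15 genes measured, had a median of 0.01. In that list Asmt, an enzyme of melatonin synthesis, differed by 0.26 (SE 0.12, limma adjusted p = 0.632) and the amino acid transporter Slc7a8 by 0.22 (SE 0.11, limma adjusted p = 0.659). The 10 measured genes of the aryl hydrocarbon receptor, which binds kynurenine, and of the kynurenic acid receptor had a median of 0.00, and Ahr itself averaged 7.32 ± 0.26 in the knockout and 7.28 ± 0.06 in WT (SD, n = 3 each).

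The 10 measured genes of interferon gamma signalling, the pathway known to induce Ido1, had a median of 0.00 with 5 positive and 5 negative. Irf9, the DNA-binding part of the interferon-stimulated complex ISGF3, stood at 8.28, 8.34 and 8.45 in the knockout and at 8.75, 8.82 and 8.89 in WT, a difference of -0.46 (SE 0.10, limma adjusted p = 0.280) with groups apart. The receptor chains Ifngr2 and Ifngr1 differed by 0.34 (SE 0.13, limma adjusted p = 0.574) and 0.14 (SE 0.10, limma adjusted p = 0.794). Of 9 measured genes listed around the haem, flavin and pyridoxal phosphate on which these enzymes depend, 8 were positive, with a median of 0.12. Not all of them supply a cofactor. Hmox1, which breaks haem down, differed by 0.42 (SE 0.26, limma adjusted p = 0.741). The electron transfer genes Cyb5a and Cyb5r3 differed by 0.10 (SE 0.13) and 0.01 (SE 0.10). Alas1, the first enzyme of haem synthesis, stood at 8.96, 9.33 and 8.52 in the knockout and 8.02, 8.10 and 8.42 in WT, a difference of 0.75 (SE 0.20, limma adjusted p = 0.383). Rfk, riboflavin kinase, differed by 0.34 (SE 0.13, limma adjusted p = 0.556) and Flad1, which makes FAD, by -0.27 (SE 0.10, limma adjusted p = 0.560).

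**Figure D4:**
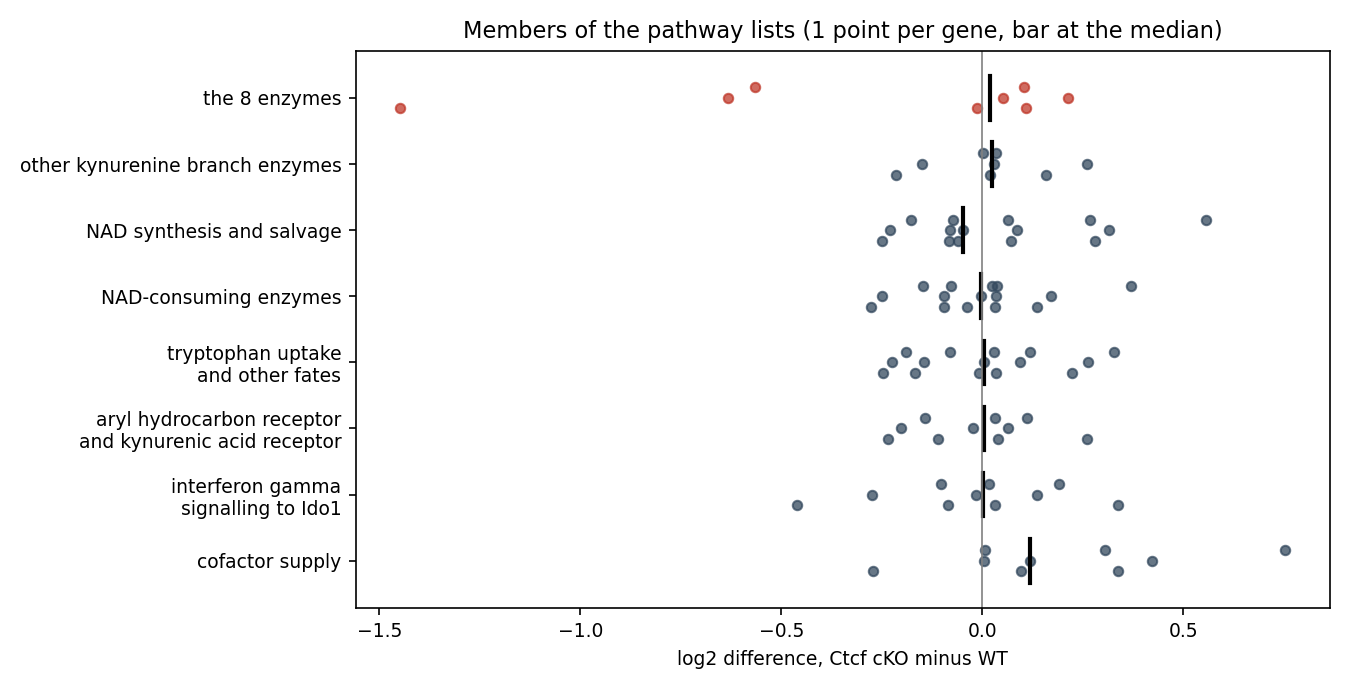
Log2 difference, Ctcf cKO minus WT, of each measured gene of the 8 enzymes (red) and of 7 other lists (blue), 1 point per gene, spread vertically for legibility. Black bars mark each list's median, between -0.05 and 0.12. Haao at -1.45 is the point farthest from 0.

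Among the genes searched, Haao had a profile over the 6 arrays that was closest to that of 5 genes outside the pathway. Likeness was measured as the root mean square difference between log2 values after subtracting each gene's own mean over the 6 arrays. The search covered 10187 genes brighter than the median. Symbols of predicted, small RNA, olfactory, vomeronasal, immunoglobulin and T cell receptor genes, and clone-style names such as those ending in Rik, were left out. The closest was Cnn3, a calponin that binds actin, at 0.206, with 8.83, 8.69 and 8.81 in the knockout and 10.20, 9.88 and 9.84 in WT. Rag2, a subunit of the recombinase that joins antigen receptor genes, followed at 0.267, with 6.51, 6.31 and 6.72 in the knockout and 8.35, 7.80 and 7.74 in WT. Bpifc was at 0.280, the zinc finger gene Zbtb39 at 0.299 and Mrpl23, a protein of the mitochondrial ribosome, at 0.305. Kmo and Kynu were farther from Haao, at 0.460 and 0.482, and the other 5 enzymes were at 0.743 to 0.835. The measure weighs the size of a change as well as its shape, and it uses the same 6 arrays that chose Haao, so it is a description.

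**Figure D5:**
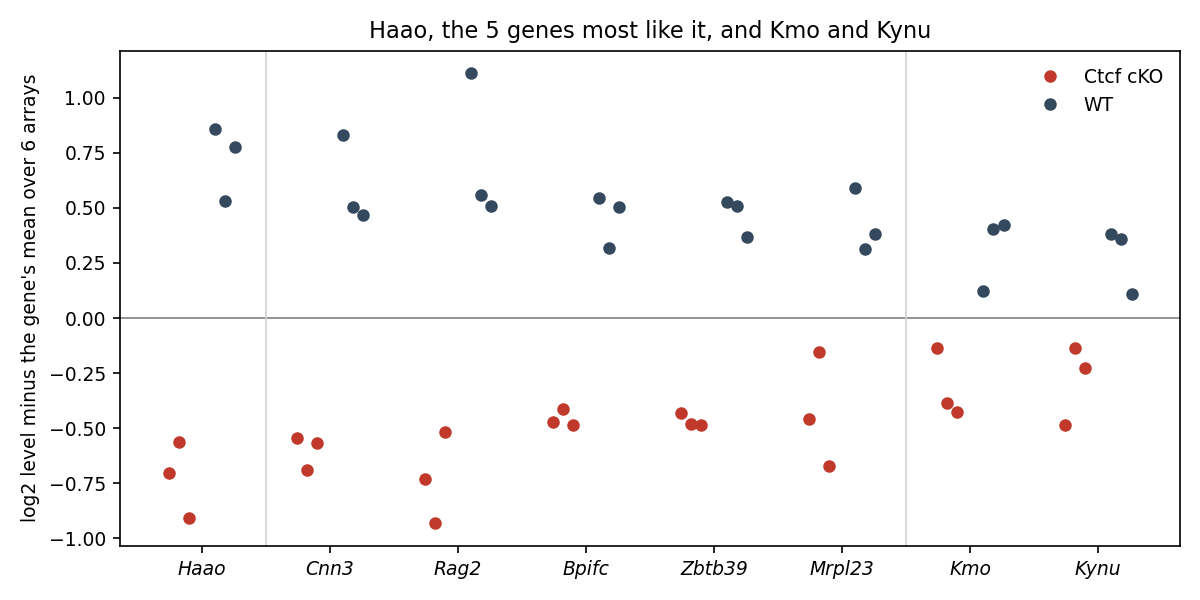
Log2 level minus the gene's own mean over the 6 arrays, for Haao, the 5 genes most like it (Cnn3, Rag2, Bpifc, Zbtb39 and Mrpl23), and Kmo and Kynu. Red points are the 3 Ctcf cKO arrays, left, and blue points the 3 WT arrays, right. The knockout arrays lie below the WT arrays for every gene shown.

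Marker levels of several cell types also differed in median between the groups, mostly without passing the test, and their part in the values of Haao, Kmo and Kynu was not tested. Of all 22180 genes, 0.0451% were called lower and 0.0271% higher, 8.11% had an unadjusted p under 0.05, and 10058 had a negative difference. All 5 measured lymphoid progenitor markers were negative (median -0.57, with Il7r and Rag2 called lower, 3 at an unadjusted p under 0.05), and their mean log2 level per array was 7.37 to 7.69 in the knockout and 8.15 to 8.70 in WT. All 9 measured B and plasma cell markers were negative (median -0.64, 0 called, 6 at an unadjusted p under 0.05), at 8.21 to 8.91 in the knockout and 8.75 to 9.69 in WT. All 5 myeloid progenitor markers were positive (median 1.15, 0 called, 5 at an unadjusted p under 0.05), at 11.06 to 11.59 in the knockout and 9.97 to 10.64 in WT. Mature neutrophil markers were negative for 7 of 8 (median -0.63, 0 called, 4 at an unadjusted p under 0.05), at 6.40 to 7.04 in the knockout and 6.72 to 8.45 in WT. Mast cell and basophil markers were positive for 5 of 7 (median 0.38, with Hdc called higher, 2 at an unadjusted p under 0.05, both higher), at 6.53 to 6.98 in the knockout and 6.003 to 6.40 in WT. Macrophages and dendritic cells are known to express Kmo and Kynu. Their markers were negative for 6 of 8 (median -0.08, at 6.82 to 7.18 in the knockout and 6.93 to 7.30 in WT) and for 5 of 7 (median -0.22, at 7.28 to 7.49 in the knockout and 7.41 to 7.59 in WT), with 0 called by limma in either list. At an unadjusted p under 0.05 were 0 of the first list and 2 of the second, 1 higher and 1 lower. The lower one, Flt3, is also counted among the LSK markers. Among the LSK markers Cd34 was bright, at 11.95 ± 0.14 in the knockout and 11.97 ± 0.05 in WT (SD, n = 3 each). Kit stood at 10.15 ± 0.05 in the knockout and 10.38 ± 0.24 in WT. Markers of other lists were bright too. Ighm stood at 13.21 ± 0.41 in the knockout and 13.85 ± 0.27 in WT, and Elane at 12.54 ± 0.26 in the knockout and 11.33 ± 0.33 in WT. Of 10 measured LSK markers 8 were negative (median -0.09, 0 called, 2 higher and 1 lower at an unadjusted p under 0.05). Ly6a, which encodes Sca-1, is not analysed here, so these levels do not test the LSK label. Medians of the remaining lists were 0.18 for megakaryocyte, 0.08 for erythroid, -0.07 for T and NK cell, -0.06 for endothelial and stromal, -0.06 for hepatocyte and 0.07 for kidney tubule markers, with 0 called by limma in any of them. In the same order 2, 0, 1, 1, 0 and 1 had an unadjusted p under 0.05, all of them higher in the knockout, also where the median was negative. No marker is at 0, as log2 array values have no zero for an absent transcript.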

How the data were processed

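The authors deposited log2 values, 1 per probe set and array, and per the submitters' processing notes they come from RMA in the R package oligo, whose versions are not given. RMA subtracts background, sets all arrays to like quantiles and pools the probes of a set, so differences of dim probe sets are compressed. Neither the summary level nor the annotation or build is given in the sources used here.

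Of 41345 probe sets, GEO's platform annotation gave 1 symbol for 23521, several for 1814 and none here for 16010. Entrez identifiers of 23328 were found in the RefSeq gene table of GRCm38.p6, with 0 symbols changed, and that table also gave the gene order. Each of 22180 genes was represented by its brightest probe set with 1 symbol, with no filter on low values. The difference of knockout and WT was fitted with limma 3.58.1 (R 4.3.3; lmFit and eBayes, group as the single term, 6 arrays), and genes with a Benjamini-Hochberg adjusted p under 0.05 were called. SEs come from the moderated fit. Precision is limited by 3 arrays per group.

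The enzymes, gene lists, markers and tests were chosen with earlier results of these data known. The rule for named genes took Ctcf and the 8 enzymes, called list members, up to 2 per direction of each pathway list among those with groups apart and a brighter group above the median of 6.29, the brightest marker of each list (given here only for some lists), called neighbours and those nearest to Haao, and the 5 genes most like Haao. Ido2, Nampt, Nadsyn1, Ahr, Hmox1, Cyb5a, Cyb5r3, Il7r, Hdc and Kit were named after their values were seen or as background. Alternatives were array weights, a robust eBayes with trend, brighter genes alone, further quantile normalization, centring, the mean of probe sets, a replicate block, fits without each array, an adjusted p under 0.1 and, added later, all probe sets.

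The test was checked on simulated data over 22180 genes with 200 changed, in 20 runs with noise independent between genes. At log2 changes of 0.5, 1 and 1.5 it recovered 21.6%, 96.2% and 99.7%, with 6.39% false calls. The noise was drawn as normal, with the variance of each gene taken from the limma fit itself. These shares therefore hold for data that follow the model and do not show how firm the Haao call is.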

Additional observations from a re-analysis of the deposited data

How the results depend on the processing

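Haao kept its direction under all alternatives run, between -1.54 and -1.36. With 1 array left out this follows from groups that do not overlap, as it does for Kmo, Kynu and Ido1. Trend and robust settings, brighter genes alone, the mean of probe sets, the replicate block and all probe sets cannot change the Haao difference. Haao has 1 probe set and the groups are of equal size, so it stayed at -1.45 there. The call was kept in 8 of 14 alternatives, with limma adjusted p between 0.00501 and 0.0922. Among these 8, the mean of probe sets used the same Haao values as the main fit. Deviations from the group means correlated at 0.29, 0.02 and -0.14 between arrays numbered 1, 2 and 3, so the numbers were not taken as pairs. The replicate block ended the Haao call, with the difference at -1.45 (limma adjusted p = 0.0618), took the enzymes called to 0 and the genes called to 7. Testing all probe sets, added after the data were seen, left Haao at -1.45 with an adjusted p of 0.0922. With 1 array left out, Haao lay between -1.54 and -1.36, the enzymes called were 0 to 1 and the genes called 0 to 8, against 16 with all arrays. The 0 came without knockout replicate 1, where 1725 genes had an unadjusted limma p under 0.05. Genes called were 25 with trend and robust settings and 26 at an adjusted p under 0.1. Restricting to brighter genes left 4 enzymes, Afmid, Kmo, Haao and Qprt, and their median was -0.29, against 0.02 for all 8, since Ido1, Tdo2, Kynu and Acmsd drop out. Kmo, Kynu and Ido1 kept their direction and did not pass under any alternative, between -0.73 and -0.58, -0.65 and -0.46, and 0.13 and 0.26. Differences near 0 changed sign. With 1 array left out Acmsd lay between -0.031 and 0.278, Qprt between -0.057 and 0.117 and Tdo2 between -0.058 and 0.077. Qprt was -0.0035 with centring and Tdo2 0.00057 with further quantile normalization. Ctcf passed under none, with adjusted p between 0.0574 and 0.418. Dim probe sets limit what Tdo2, Ido1, Acmsd and Kynu can show.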
